A study of Homo sapiens with 14 samples.

Results

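The genes described here are 35 genes of the neuronal cytoskeleton and synapse, read in a human stem cell model in which the beta-catenin gene CTNNB1 was removed or overexpressed. They are a listed set, chosen by name: 25 encode structural and early neuron proteins (tubulins, microtubule-associated proteins, stathmins, intermediate filaments, growth cone and adhesion proteins, RNA-binding proteins and a reticulon) and 10 encode proteins of synapses and regulated secretion. All 35 symbols were matched to 1 Ensembl identifier each among 58051 genes, and all 35 passed the filter on low values. The rule uses no measured value, although the list was drawn up with earlier results of these data known.

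RNA sequencing was done on cultures of medial ganglionic eminence-like (MGE-like) progenitors, the ventral forebrain region that gives rise to cortical interneurons, derived from H9, an established human embryonic stem cell line. All groups had dual inhibition of TGF-beta and BMP signalling with 2 µM SB431542 plus 200 nM LDN193189 over days 0 to 6. They also had Sonic hedgehog protein (SHH, 250 ng/mL) with purmorphamine (0.3 µM), an activator of the same pathway, over days 10 to 17, and were collected at day 25. The 4 groups were CTNNB1 knockout (KO, 5 libraries), wild type (WT, 3 libraries), a line with inducible CTNNB1 overexpression given 0.1 µg/mL doxycycline over days 17 to 25 (OE with Dox, 3 libraries), and that line without the drug (OE without Dox, 3 libraries). The labels do not give how the knockout was made, which form of CTNNB1 was expressed, how many clones were used, or whether replicates were separate differentiations, so that p-values measure the spread between these libraries, which may be technical. No WT culture received doxycycline, and the drug and the transgene therefore cannot be told apart.

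A young neuron builds axons and dendrites from microtubules of neuronal tubulins, which doublecortin, MAP2 and tau stabilise and stathmins destabilise. Neurofilaments and alpha-internexin fill the axon, GAP43 and the CRMP family act in the growth cone, and ELAVL, RBFOX and CELF proteins set the splicing and stability of neuronal mRNAs. At the nerve terminal, synaptic vesicles carry synapsins, synaptophysin and synaptotagmins, and fuse through the SNARE proteins SNAP25, syntaxin and VAMP2 with help from complexins. Structural genes are usually switched on when a progenitor leaves the cell cycle, and the synaptic genes become abundant later, as the neuron matures. Beta-catenin is both a partner of cadherins at cell junctions and the effector of canonical WNT signalling, in which it works with TCF/LEF transcription factors.

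Values are deposited read counts divided by a size factor for each library, called normalized counts. The 14 libraries held between 5233270 and 5639725 reads assigned to genes, and a count of 0 allows up to 3 reads, or 2.60 to 2.84 normalized counts, which covers counting error only. CTNNB1 itself (ENSG00000168036) had 2483, 2779, 2385, 2178 and 2090 normalized counts in KO, against 4393, 3803 and 3248 in WT (log2 fold -0.67, SE 0.13, limma adjusted p = 1.00e-03). It had 26028, 23861 and 31290 in OE with Dox, against 3084, 3318 and 3633 in OE without Dox (log2 fold 3.01, SE 0.14, limma adjusted p = 5.77e-11). Transcript of CTNNB1 was thus still counted in every KO library, and since the labels do not say what was deleted, its level is an incomplete check of the knockout.

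The labelled cell type was checked against its markers. SOX2, a neural progenitor factor, stood at 2281 to 3352 in all 14 libraries. NES, which encodes the progenitor filament nestin, had 6678, 8800, 8655, 10374 and 7126 normalized counts in KO, against 8328, 8284 and 8328 in WT, and 2109, 1375 and 1124 in OE with Dox, against 8735, 6826 and 8909 in OE without Dox. NES was thus far lower in every library with Dox. VIM, also on the list of 13 progenitor genes, went the other way. It had 11596, 12143 and 9727 in OE with Dox, against 5337, 6398 and 3786 in OE without Dox. Of those 13 genes, 3 were higher and 7 lower with Dox by limma. NKX2-1, the factor that defines the MGE, separated the groups, with 2387, 2584, 2412, 3010 and 3475 normalized counts in KO, against 373, 621 and 664 in WT, and 910, 274 and 296 in OE with Dox, against 1845, 1378 and 2394 in OE without Dox. The WT libraries, labelled as the same cell type, thus had far less NKX2-1 RNA than OE without Dox, which is the other control. MGE-type cells were fewer, or each held less of this RNA, and bulk samples cannot tell the one from the other, for this marker or for any gene below.

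Most of the 35 genes were higher in KO than in WT and lower in OE with Dox than in OE without Dox. In KO against WT, 20 of 35 were higher and 2 lower at a limma adjusted p under 0.05, against 6.64% higher and 7.15% lower among all 17102 genes tested. The median log2 fold over the 35 was 0.64, against -0.02 over all genes tested. In OE with Dox against OE without Dox, 1 was higher and 23 were lower, against 12.8% and 12.9% of all genes tested, and the median log2 fold was -1.12. Without a test, the KO libraries all lay above the WT libraries for 20 of 35 genes and all below for 3, against 8.61% and 9.53% of all genes tested. The OE with Dox libraries all lay above those without Dox for 2 and all below for 23, against 21.2% and 19.5%. A limma p here is adjusted by Benjamini-Hochberg over all 17102 genes within 1 comparison.

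The structural and the synaptic genes went the same way. Of the 25 structural genes, KO had 15 higher and 1 lower, and OE with Dox had 1 higher and 17 lower, with median log2 folds of 0.64 and -1.17. Of the 10 synaptic genes, 5 were higher and 1 lower in KO, and 6 were lower with Dox, with median log2 folds of 0.66 and -0.79. With Dox 0 synaptic genes were higher by limma, by edgeR, by DESeq2 or at an unadjusted p under 0.05. No test between the classes was made. In each library the 35 genes together took 0.896% to 1.08% of all counts in KO, against 0.643% to 0.728% in WT, and 0.436% to 0.498% in OE with Dox, against 0.958% to 1.01% in OE without Dox. Mitochondrial genes took 2.18% to 2.53% of counts in KO and 2.20% to 2.90% in WT, and 2.51% to 3.03% in OE with Dox and 2.20% to 2.39% in OE without Dox. Every OE with Dox library thus had a higher mitochondrial share than every OE without Dox library, though not than every KO or WT library. The part of this in the lower neuron levels was not tested.

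**Figure D1:**
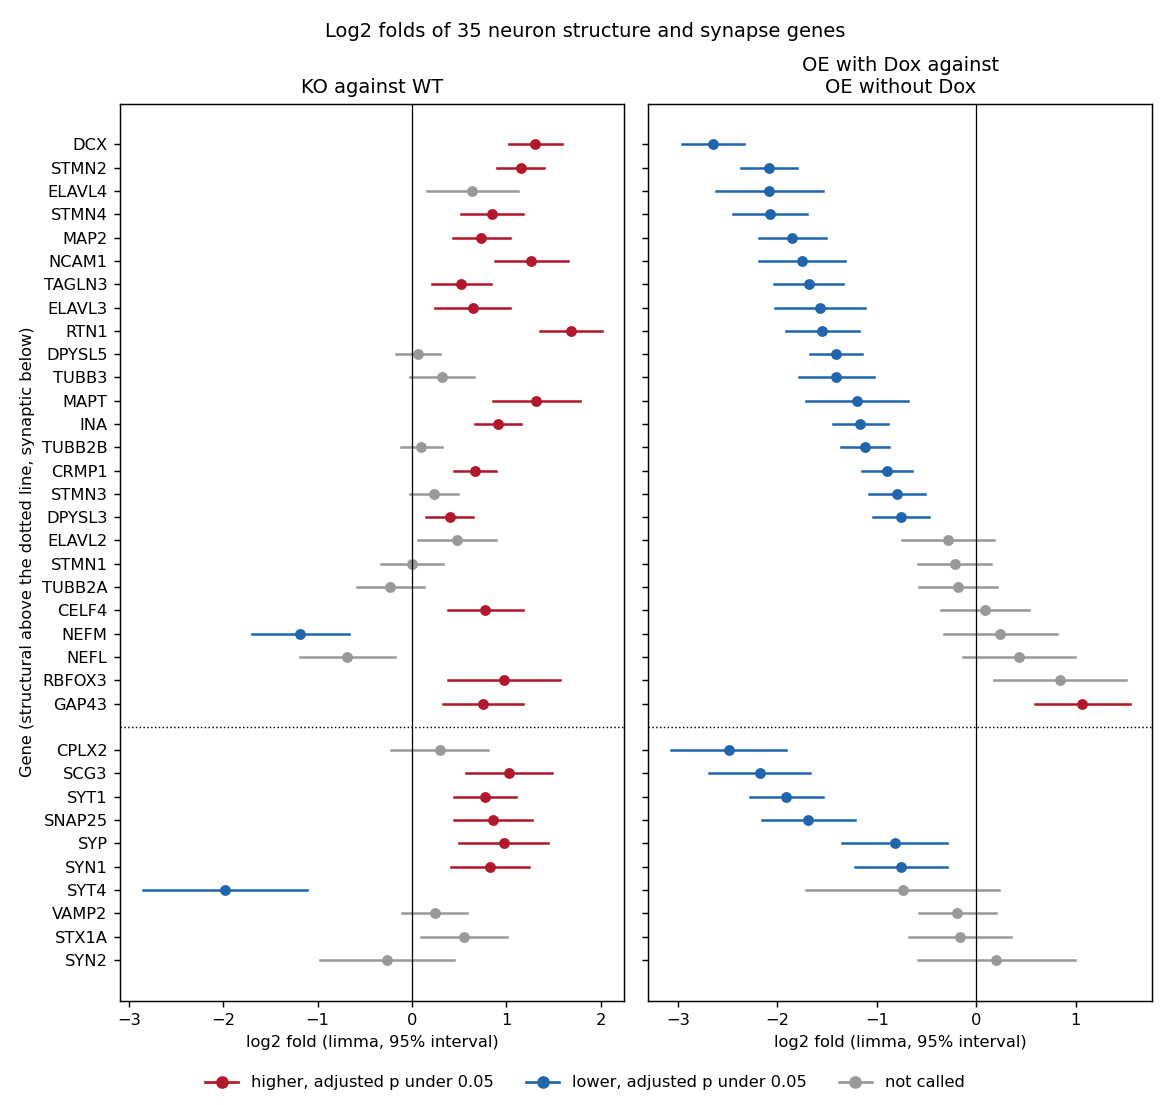
Log2 folds of the 35 genes with 95% intervals from limma, for KO against WT on the left and OE with Dox against OE without Dox on the right, coloured by whether the adjusted p was under 0.05. Points lie mostly right of 0 on the left (20 higher, 2 lower) and left of 0 on the right (1 higher, 23 lower).

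The KO and the Dox comparisons share no library, so that their calls can be set side by side. For 17 of 35 genes the KO level was higher than WT and the Dox level lower than without Dox, against 640 of 17102 genes, or 3.74%, with that pair of calls. These 17 were CRMP1, DCX, DPYSL3, ELAVL3, INA, MAP2, MAPT, NCAM1, RTN1, SCG3, SNAP25, STMN2, STMN4, SYN1, SYP, SYT1 and TAGLN3. The difference between the effects, tested as the Dox effect minus the KO effect, was called for all 17. It was also called for all 640 genes with that pair. Opposite calls from 1 fit nearly fix this outcome, so it adds no separate evidence. Over the 35 genes this difference was called negative for 23 and positive for 2, against 13.6% and 15.1% of all genes tested. CPLX2, DPYSL5, ELAVL4, STMN3, TUBB2B and TUBB3 were called lower with Dox and not called in KO. For each the difference between the effects was called, as for 1070 of the 1415 genes tested with that pattern. CELF4 and RBFOX3 were called higher and NEFM and SYT4 lower in KO, and none of them with Dox. Of these the difference was called for NEFM, but not for CELF4 (limma adjusted p = 0.0782), SYT4 (limma adjusted p = 0.149) or RBFOX3 (limma adjusted p = 0.846), which are therefore not shown to differ between the comparisons. GAP43 alone was called higher in both, and ELAVL2, NEFL, STMN1, STX1A, SYN2, TUBB2A and VAMP2 in neither.

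**Figure D2:**
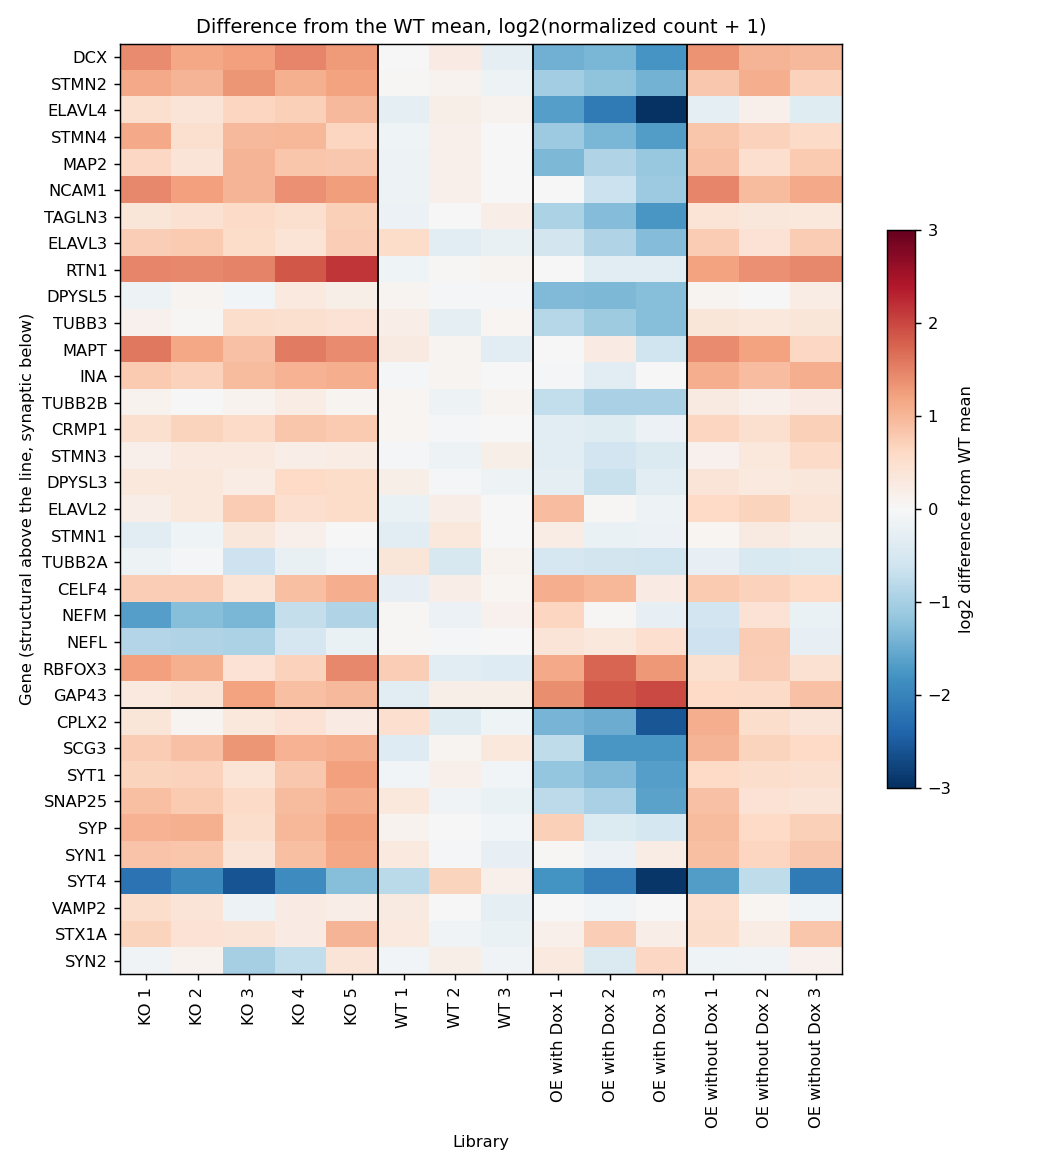
Level of each of the 35 genes (rows) in each of the 14 libraries (columns) as the log2 difference from the mean of the WT libraries, on log2(normalized count + 1), structural genes above the line and synaptic genes below. KO libraries have median differences of 0.43 to 0.79 and OE with Dox libraries of -0.59 to -0.31, while OE without Dox libraries have 0.47 to 0.59.

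Because 17 of the 35 shared a pair of calls, the promoters of the 35 were read for short motifs. These were the E-boxes CAGCTG and CAGATG bound by proneural factors, the TCF/LEF letters CTTTGAA and CTTTGAT, the core of the RE1 element bound by the repressor REST, and TATAAA. Both strands were read over 250 bases before and 50 after each RefSeq start (GRCh38.p14), and the motifs do not contain one another. Of the 35 genes, 27 had at least 1 window, 65 windows in all. Of the 17, ELAVL3, MAPT, NCAM1, SNAP25, STMN2 and STMN4 had none. RBFOX3, ELAVL4 and ELAVL2, which are not among the 17, had 12, 7 and 6 windows, some of them overlapping. CAGCTG was in 18.5% of the member windows and in 17.9% of all 35116 windows, CAGATG in 16.9% and 14.7%, TATAAA in 12.3% and 11.5%, CTTTGAA in 3.08% and 4.43%, and CTTTGAT in 0 member windows and 2.62% of all. These shares lie close to each other, but they count windows and not genes, and do not describe the 17 as a set. A match is only a run of letters. The RE1 core was in 20 of all windows (0.057%), 1 of them that of SYN1. The windows below are of 3 genes that were higher in KO and lower with Dox (DCX, TAGLN3 and SYN1), of ELAVL4, which holds a TCF/LEF run, and of GAP43, which was higher in both and holds none of the runs, all 5′ to 3′ with every match in capitals:
DCX promoter, minus strand, chrX:111412048-111412347: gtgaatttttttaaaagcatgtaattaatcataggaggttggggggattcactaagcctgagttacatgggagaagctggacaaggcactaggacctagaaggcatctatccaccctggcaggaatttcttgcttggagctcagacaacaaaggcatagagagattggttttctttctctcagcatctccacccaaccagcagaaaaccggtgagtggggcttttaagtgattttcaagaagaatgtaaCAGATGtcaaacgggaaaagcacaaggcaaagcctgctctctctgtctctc
TAGLN3 promoter, plus strand, chr3:111998672-111998971: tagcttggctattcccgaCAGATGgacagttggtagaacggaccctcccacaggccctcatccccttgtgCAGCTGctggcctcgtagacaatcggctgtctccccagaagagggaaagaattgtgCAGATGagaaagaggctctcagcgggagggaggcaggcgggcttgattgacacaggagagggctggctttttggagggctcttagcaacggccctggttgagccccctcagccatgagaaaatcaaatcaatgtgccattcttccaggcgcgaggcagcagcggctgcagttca
SYN1 promoter, minus strand, chrX:47619808-47620107: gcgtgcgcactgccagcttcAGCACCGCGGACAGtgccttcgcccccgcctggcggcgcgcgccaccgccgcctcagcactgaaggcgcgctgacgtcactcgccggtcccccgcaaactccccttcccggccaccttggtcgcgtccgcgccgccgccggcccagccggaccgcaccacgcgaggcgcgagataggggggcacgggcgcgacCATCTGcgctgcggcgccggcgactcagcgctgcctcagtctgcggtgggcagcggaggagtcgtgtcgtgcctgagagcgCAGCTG
ELAVL4 promoter, plus strand, chr1:50109583-50109882: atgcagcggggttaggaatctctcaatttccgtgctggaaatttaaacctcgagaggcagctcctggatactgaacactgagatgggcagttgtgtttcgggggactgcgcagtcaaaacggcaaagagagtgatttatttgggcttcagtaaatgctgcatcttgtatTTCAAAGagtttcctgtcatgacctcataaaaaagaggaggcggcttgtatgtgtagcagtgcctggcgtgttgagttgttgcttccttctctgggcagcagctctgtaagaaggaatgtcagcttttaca
GAP43 promoter, plus strand, chr3:115623260-115623559: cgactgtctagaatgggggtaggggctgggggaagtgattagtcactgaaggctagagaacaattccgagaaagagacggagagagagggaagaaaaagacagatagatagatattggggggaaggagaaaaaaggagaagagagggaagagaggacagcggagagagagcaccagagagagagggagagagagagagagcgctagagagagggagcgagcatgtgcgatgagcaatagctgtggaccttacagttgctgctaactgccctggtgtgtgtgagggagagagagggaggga
In the SYN1 window the RE1 core begins 230 bases before the start, an E-box CAGATG (read as CATCTG on the printed strand) begins 37 bases before it, and CAGCTG begins at base 44 after it. The TAGLN3 window has CAGATG at 232 and 124 bases before the start and CAGCTG at 180, and the DCX window has CAGATG at 1 base before it. In the ELAVL4 window CTTTGAA stands on the other strand, 81 bases before the start.

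Proteins that bind and stabilise microtubules made up the role with all 3 members called both ways: DCX, MAP2 and MAPT were higher in KO than in WT and lower in OE with Dox than in OE without Dox. DCX (ENSG00000077279, hg38 chromosome X, 111293779 to 111412429, minus strand) encodes doublecortin, the microtubule protein of migrating neurons, and had 6620, 5531, 5842, 6833 and 6043 normalized counts in KO, against 2511, 2966 and 2063 in WT. It had 911, 954 and 733 in OE with Dox, against 6362, 5027 and 4897 in OE without Dox. The KO and WT ranges did not overlap (log2 fold 1.31, SE 0.13, limma adjusted p = 1.94e-06), nor did those with and without Dox (log2 fold -2.65, SE 0.15, limma adjusted p = 6.34e-10). The difference between both effects was -3.95 on the log2 scale (SE 0.20, limma adjusted p = 1.37e-10), the largest in size of the 35.

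MAP2 (ENSG00000078018, chromosome 2, 209424047 to 209734147, plus strand), the microtubule protein of dendrites, had 4416, 3710, 5772, 5117 and 5034 normalized counts in KO, against 2564, 3167 and 2872 in WT (log2 fold 0.74, SE 0.14, limma adjusted p = 0.00147). With Dox it had 1128, 1518 and 1306, against 5294, 4025 and 4925 without Dox (log2 fold -1.85, SE 0.16, limma adjusted p = 1.01e-07). Neither pair of groups overlapped. MAPT (ENSG00000186868, chromosome 17, 45894527 to 46028334, plus strand) encodes tau, the microtubule protein of axons. It had 823, 614, 506, 811 and 734 in KO, against 331, 292 and 216 in WT (log2 fold 1.31, SE 0.22, limma adjusted p = 4.37e-04). OE with Dox libraries had 271, 327 and 183 MAPT counts, against 734, 635 and 424 in OE without Dox (log2 fold -1.20, SE 0.24, limma adjusted p = 0.00128), again with no overlap. The antisense gene MAPT-AS1 overlaps MAPT exons, and without a stated strand setting their reads cannot be told apart.

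**Figure D3:**
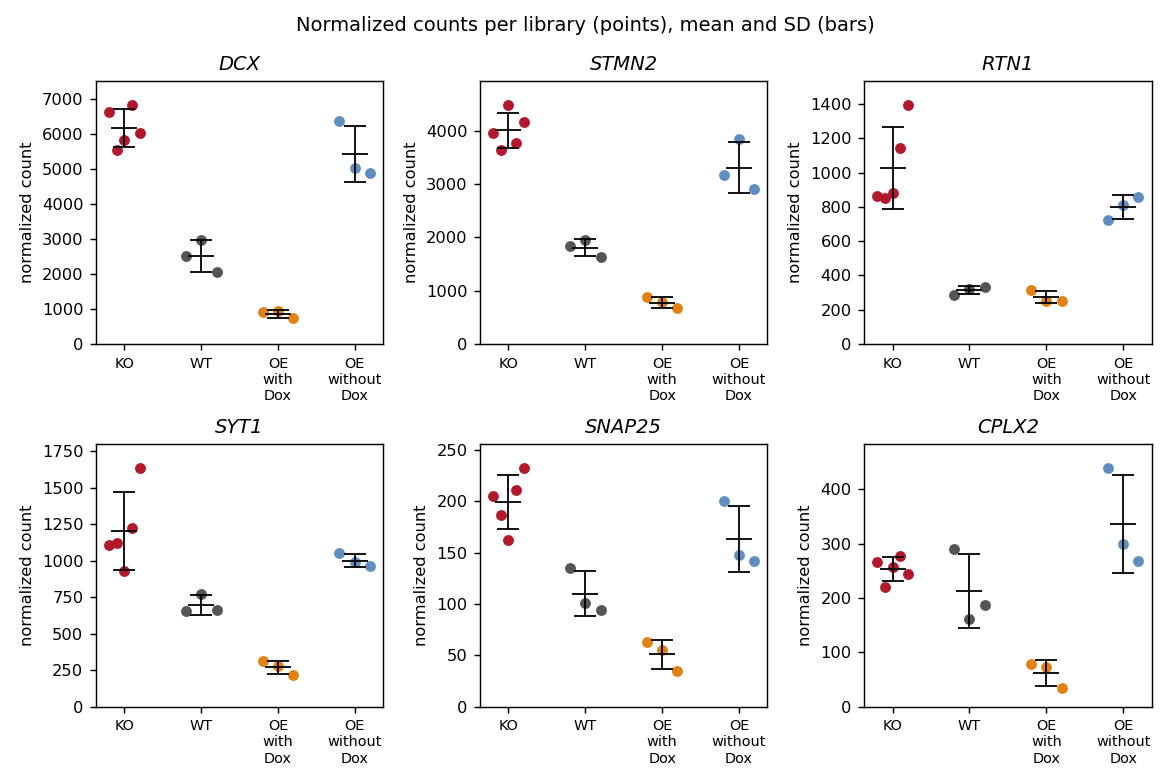
Normalized counts of DCX, STMN2, RTN1, SYT1, SNAP25 and CPLX2 in each library (points) with the group mean and SD (bars; KO n = 5, other groups n = 3). For DCX the KO libraries sit between 5531 and 6833 and the WT libraries between 2063 and 2966, with OE with Dox at 733 to 954 and OE without Dox at 4897 to 6362.

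The stathmins, which sequester tubulin dimers, divided by member. STMN2 and STMN4 were higher in KO and lower with Dox, and STMN3 was lower with Dox and not called in KO. STMN1, which dividing cells also express, was called in neither. STMN2 (ENSG00000104435, chromosome 8, 79611117 to 79666158, plus strand) had 3966, 3645, 4489, 3778 and 4172 normalized counts in KO, against 1846, 1943 and 1633 in WT, with no overlap (log2 fold 1.15, SE 0.12, limma adjusted p = 2.67e-06). It had 881, 781 and 670 in OE with Dox, against 3169, 3844 and 2915 in OE without Dox (log2 fold -2.09, SE 0.13, limma adjusted p = 2.99e-09). Every library with Dox was thus also below every WT library for STMN2.

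STMN4 (ENSG00000015592, chromosome 8, 27235308 to 27258420, minus strand) had 1021, 644, 912, 923 and 726 in KO, against 420, 516 and 456 in WT (log2 fold 0.85, SE 0.16, limma adjusted p = 0.00103). Its counts were 215, 179 and 145 with Dox, against 830, 748 and 684 without Dox (log2 fold -2.08, SE 0.18, limma adjusted p = 8.32e-08), and neither pair overlapped. STMN3 (ENSG00000197457, chromosome 20, 63639705 to 63657682, minus strand) had 657, 723, 726, 676 and 694 in KO, against 577, 537 and 671 in WT, which overlap. The STMN3 log2 fold in KO was 0.23 (95% interval -0.02 to 0.48, limma adjusted p = 0.254). With Dox STMN3 had 470, 395 and 440, against 650, 739 and 888 without Dox (log2 fold -0.79, SE 0.13, limma adjusted p = 1.92e-04). STMN1 averaged 4442 ± 794 in KO and 4447 ± 982 in WT, and 4258 ± 700.2 in OE with Dox and 4920 ± 359 in OE without Dox (SD, n = 5 in KO, 3 in the others). Its 95% intervals were -0.33 to 0.33 for the KO log2 fold and -0.59 to 0.15 for the Dox log2 fold.

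Of the 3 beta-tubulin genes, none was called in KO, and TUBB3 and TUBB2B were lower with Dox. TUBB3 (ENSG00000258947, chromosome 16, 89921392 to 89938761, plus strand) encodes the beta-III tubulin used to stain young neurons. It had 171, 161, 228, 218 and 211 normalized counts in KO, against 181, 130 and 165 in WT, with overlap (log2 fold 0.32, SE 0.16, limma adjusted p = 0.236, 95% interval -0.02 to 0.65). It had 86.8, 74.4 and 64.5 with Dox, against 201, 195 and 203 without Dox (log2 fold -1.41, SE 0.18, limma adjusted p = 9.48e-06), far apart. A gene on the same strand, ENSG00000198211, with a mean of 0 normalized counts, overlaps TUBB3 exons. Reads in shared exons could have been dropped, so the TUBB3 level may be understated. TUBB2B (ENSG00000137285, chromosome 6, 3223324 to 3231730, minus strand) had 2476, 2302, 2477, 2714 and 2441 in KO, against 2427, 2080 and 2466 in WT (log2 fold 0.10, SE 0.10, limma adjusted p = 0.632), which overlap. For TUBB2B the counts were 1391, 1176 and 1171 with Dox, against 2795, 2571 and 2757 without Dox (log2 fold -1.12, SE 0.11, limma adjusted p = 6.74e-07), with no overlap. TUBB2A, a near-identical neighbour of TUBB2B, averaged 308 ± 45.1 in KO and 368 ± 103 in WT, and 243 ± 8.07 with Dox and 277 ± 22.6 without Dox. Reads that fit both paralogs could have been assigned to either or dropped, so the values of TUBB2A and TUBB2B are uncertain, and opposite-strand genes (BPHL and PSMG4) also overlap their exons.

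The intermediate filament genes disagreed with one another. INA, which encodes alpha-internexin, an early neuronal filament protein, was higher in KO and lower with Dox, while NEFM was lower in KO. INA (ENSG00000148798, chromosome 10, 103277138 to 103290346, plus strand) had 1199, 1127, 1358, 1447 and 1479 normalized counts in KO, against 671, 736 and 690 in WT (log2 fold 0.91, SE 0.12, limma adjusted p = 2.80e-05). With Dox it had 673, 554 and 698, against 1480, 1331 and 1498 without Dox (log2 fold -1.17, SE 0.13, limma adjusted p = 2.37e-06). Neither pair overlapped. An exon of the opposite-strand gene NT5C2 overlaps INA.

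NEFM (ENSG00000104722, chromosome 8, 24913758 to 24919098, plus strand), the medium neurofilament chain, had 220, 284, 268, 419 and 369 in KO, against 708, 614 and 761 in WT, with every KO library lower (log2 fold -1.18, SE 0.24, limma adjusted p = 0.00281). It had 1079, 706 and 580 in OE with Dox, against 466, 942 and 607 in OE without Dox, which overlap (log2 fold 0.24, SE 0.27, limma adjusted p = 0.567, 95% interval -0.33 to 0.81). NEFL, its light partner and chromosomal neighbour, averaged 426 ± 104 in KO and 671 ± 21.8 in WT (log2 fold -0.69, SE 0.24, limma adjusted p = 0.0685). Each KO library lay below each WT library for NEFL, but the adjusted p missed the threshold. With Dox NEFL averaged 886 ± 58.0, against 715 ± 375 without Dox, the last group running from 437 to 1142. The Dox effect minus the KO effect was positive for both, at 1.43 for NEFM (SE 0.36, limma adjusted p = 0.00668) and 1.12 for NEFL (SE 0.36, limma adjusted p = 0.0257). The NEFL difference lost its call in 7 of 24 alternatives, without WT 1, WT 3, OE without Dox 1, OE without Dox 3 or OE with Dox 3 among them, with an adjusted p of up to 0.0764.

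Of the 6 growth cone and adhesion genes, 5 were higher in KO and 5 lower with Dox, and GAP43 was higher in both. NCAM1 (ENSG00000149294, chromosome 11, 112961275 to 113278436, plus strand), the neural cell adhesion molecule, had 4192, 3585, 3110, 3941 and 3672 normalized counts in KO, against 1380, 1720 and 1524 in WT (log2 fold 1.26, SE 0.18, limma adjusted p = 1.15e-04). It had 1531, 985 and 725 with Dox, against 4225, 2967 and 3367 without Dox (log2 fold -1.76, SE 0.21, limma adjusted p = 4.58e-06), and neither pair overlapped. DPYSL5 (ENSG00000157851, chromosome 2, 26847747 to 26950351, plus strand), a CRMP family protein that restrains neurite growth, had 2689, 3196, 2850, 3711 and 3408 in KO, against 3203, 2885 and 2937 in WT, which overlap (log2 fold 0.07, SE 0.11, limma adjusted p = 0.775, 95% interval -0.17 to 0.30). With Dox it had 1206, 1181 and 1245, against 3163, 3029 and 3483 without Dox (log2 fold -1.41, SE 0.12, limma adjusted p = 1.23e-07), far outside the spread of either group.

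TAGLN3 (ENSG00000144834, chromosome 3, 111998739 to 112013887, plus strand), an actin-binding protein of neurons, had 806, 859, 937, 876 and 1028 in KO, against 552, 618 and 715 in WT (log2 fold 0.52, SE 0.15, limma adjusted p = 0.0229). That call was lost without WT 1, WT 2 or KO 5, and with the replicate number as a block (adjusted p up to 0.105). TAGLN3 had 323, 252 and 186 with Dox, against 825, 793 and 776 without Dox (log2 fold -1.68, SE 0.17, limma adjusted p = 4.79e-07). Of the other CRMP family genes, which act in growth cone guidance, CRMP1 was at 3268 ± 332 in KO and 2054 ± 88.4 in WT, and DPYSL3 at 5087 ± 579.7 in KO and 3860 ± 457 in WT. Their log2 folds were 0.66 and 0.40 in KO, and -0.90 and -0.75 with Dox, all past the threshold. The KO call of DPYSL3 was lost without WT 2, WT 3, KO 4 or KO 5, and with the replicate number as a block (adjusted p up to 0.172). The CRMP1 exons overlap those of the opposite-strand gene EVC, and NCAM1 overlaps antisense genes.

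GAP43 (ENSG00000172020, chromosome 3, 115623510 to 115721490, plus strand) encodes a membrane protein of growth cones and regenerating axons. It had 637, 674, 1202, 967 and 1022 normalized counts in KO, against 409, 581 and 586 in WT, with every KO library higher (log2 fold 0.75, SE 0.20, limma adjusted p = 0.0166). The KO call was lost without WT 1, at an adjusted p of 0.0984. GAP43 had 1368, 1901 and 2053 in OE with Dox, against 783, 778 and 953 in OE without Dox, again with every treated library higher (log2 fold 1.07, SE 0.22, limma adjusted p = 0.00167). It was the single member of the 35 past the threshold upward with Dox.

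**Figure D4:**
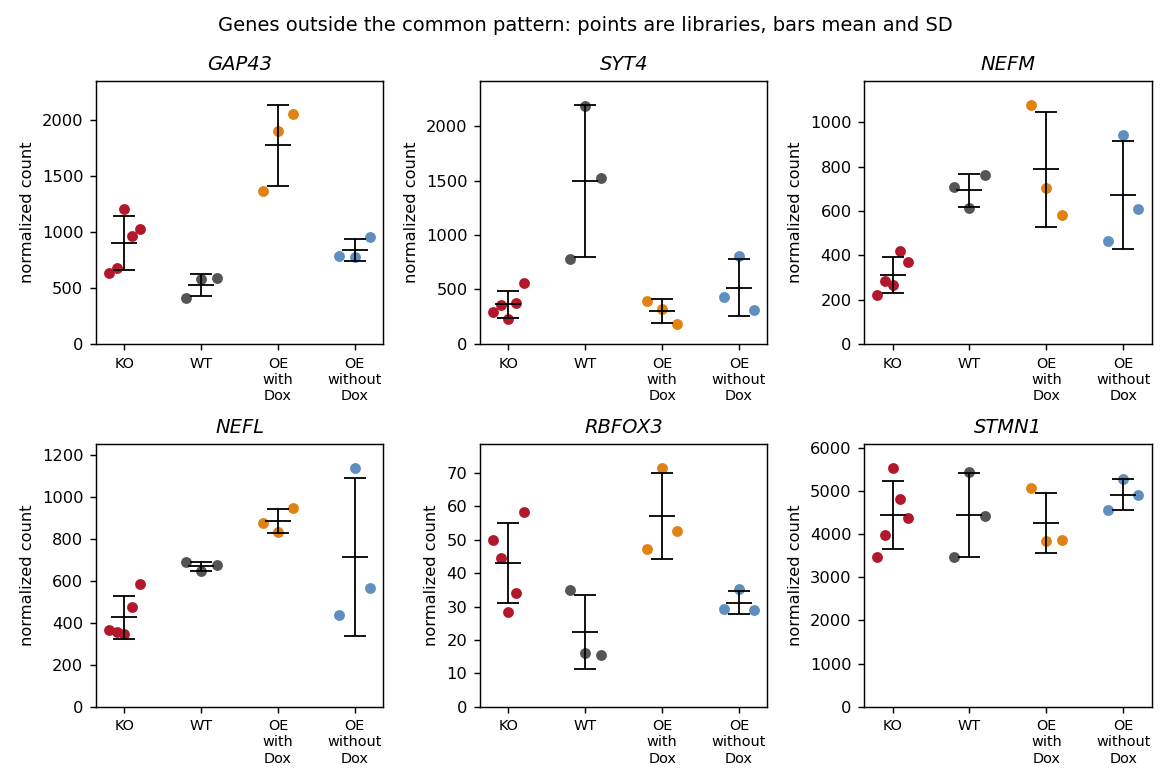
Normalized counts of GAP43, SYT4, NEFM, NEFL, RBFOX3 and STMN1 in each library (points) with the group mean and SD (bars; KO n = 5, other groups n = 3). GAP43 has 1368 to 2053 in OE with Dox and 778 to 953 in OE without Dox, while SYT4 has 226 to 563 in KO and 784 to 2181 in WT.

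Of the 5 RNA-binding protein genes, 3 were higher in KO (ELAVL3, CELF4 and RBFOX3) and 2 lower with Dox (ELAVL3 and ELAVL4). ELAVL4 (ENSG00000162374, chromosome 1, 50024029 to 50203772, plus strand), the Hu protein HuD that stabilises neuronal mRNAs, had 574, 531, 644, 673 and 799 normalized counts in KO, against 335, 461 and 443 in WT. These groups did not overlap, but the adjusted p missed the threshold (log2 fold 0.64, SE 0.23, limma adjusted p = 0.0782). It had 130, 93.9 and 51.6 with Dox, against 338, 456 and 318 without Dox (log2 fold -2.08, SE 0.26, limma adjusted p = 9.57e-06), with no overlap. ELAVL3 (ENSG00000196361, chromosome 19, 11451326 to 11481046, minus strand), the Hu protein HuC, had 774, 805, 676, 613 and 769 in KO, against 681, 369 and 398 in WT, where 1 WT library reached into the KO range (log2 fold 0.64, SE 0.19, limma adjusted p = 0.031). Without WT 2, WT 3, KO 1, KO 2 or KO 5 that call was lost (adjusted p up to 0.175). With Dox ELAVL3 had 318, 247 and 188, against 786, 629 and 792 without Dox (log2 fold -1.57, SE 0.21, limma adjusted p = 2.06e-05).

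CELF4 (ENSG00000101489, chromosome 18, 37243040 to 37565827, minus strand), which binds mRNAs of excitability genes in the mouse brain, had 201, 203, 162, 226 and 257 in KO, against 101, 139 and 126 in WT (log2 fold 0.78, SE 0.19, limma adjusted p = 0.00843). Those groups did not overlap, and the call was lost without WT 1, at an adjusted p of 0.05. CELF4 had 259, 242 and 143 in OE with Dox, against 208, 195 and 185 in OE without Dox, which overlap (log2 fold 0.09, SE 0.21, limma adjusted p = 0.814, 95% interval -0.36 to 0.53). RBFOX3, whose protein is the antigen NeuN of mature neurons, was low throughout. It averaged 43.0 ± 12.0 in KO and 22.2 ± 11.1 in WT (log2 fold 0.97, SE 0.28, limma adjusted p = 0.0257). That call was lost without WT 2, WT 3, KO 1 or KO 5, and with the replicate number as a block (adjusted p up to 0.156). With Dox RBFOX3 averaged 57.1 ± 12.8, against 31.1 ± 3.48 without Dox (log2 fold 0.84, SE 0.32, limma adjusted p = 0.0601), and with the replicate number as a block, in which 14.4% of all genes tested were higher and 14.3% lower, the limma adjusted p was 0.0458, past the threshold. ELAVL2 averaged 379 ± 57.4 in KO and 272 ± 36.8 in WT, and 345 ± 148 with Dox and 399 ± 36.5 without Dox, with neither fold past the threshold.

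RTN1 (ENSG00000139970, chromosome 14, 59595976 to 59870776, minus strand) encodes a reticulon, a protein that shapes the neuronal endoplasmic reticulum, and had the largest rise in KO of the 35. It had 862, 850, 879, 1146 and 1395 normalized counts in KO, against 288, 323 and 331 in WT (log2 fold 1.68, SE 0.16, limma adjusted p = 6.32e-07), on average 3.20-fold. It had 315, 252 and 252 in OE with Dox, against 721, 813 and 858 in OE without Dox (log2 fold -1.55, SE 0.17, limma adjusted p = 2.28e-06). Both pairs of groups were far apart, while the OE with Dox libraries overlapped those of WT (log2 fold -0.21, 95% interval -0.57 to 0.16).

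Among the synaptic genes, the SNARE and complexin group had SNAP25 higher in KO and SNAP25 and CPLX2 lower with Dox. SNAP25 (ENSG00000132639, chromosome 20, 10172395 to 10308258, plus strand), a SNARE of the nerve terminal membrane, had 205, 187, 162, 211 and 233 normalized counts in KO, against 135, 101 and 94.4 in WT (log2 fold 0.86, SE 0.20, limma adjusted p = 0.00571). It had 62.8, 54.8 and 35 with Dox, against 200, 148 and 142 without Dox (log2 fold -1.69, SE 0.22, limma adjusted p = 1.27e-05), and neither pair overlapped. CPLX2 (ENSG00000145920, chromosome 5, 175796310 to 175884021, plus strand), a complexin that clamps and triggers SNARE fusion, had 267, 220, 257, 278 and 244 in KO, against 291, 161 and 187 in WT, with overlap (log2 fold 0.29, SE 0.25, limma adjusted p = 0.531, 95% interval -0.23 to 0.81). Its counts with Dox were 77.6, 72.5 and 34.1, against 440, 300 and 269 without Dox (log2 fold -2.49, SE 0.27, limma adjusted p = 2.42e-06), the largest fall of the synaptic genes. STX1A and VAMP2, the other SNAREs, passed the threshold in neither comparison. STX1A averaged 77.7 ± 18.0 in KO and 52.2 ± 9.82 in WT (log2 fold 0.55, SE 0.22, limma adjusted p = 0.109), and 67.9 ± 16.1 with Dox and 76.2 ± 16.6 without Dox (95% interval of the log2 fold -0.68 to 0.35). VAMP2 averaged 458 ± 76.1 in KO and 387 ± 72.5 in WT, and 375 ± 10.3 with Dox and 435 ± 99.0 without Dox (95% intervals -0.10 to 0.59 and -0.58 to 0.19).

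The synaptotagmins, calcium-binding proteins of vesicles, went opposite ways in KO. SYT1 (ENSG00000067715, chromosome 12, 78863993 to 79452008, plus strand), the calcium sensor of fast release, had 1108, 1119, 928, 1222 and 1638 normalized counts in KO, against 654, 772 and 659 in WT (log2 fold 0.77, SE 0.16, limma adjusted p = 0.00211). It had 311, 277 and 218 in OE with Dox, against 1050, 993 and 961 in OE without Dox (log2 fold -1.91, SE 0.17, limma adjusted p = 1.94e-07), and neither pair overlapped. SYT4 (ENSG00000132872, chromosome 18, 43267892 to 43277535, minus strand), a form that does not drive fast release, had 297, 362, 226, 374 and 563 in KO, against 784, 2181 and 1523 in WT. All KO libraries lay below all WT libraries, although the WT libraries spread widely (log2 fold -1.98, SE 0.40, limma adjusted p = 0.00452). With Dox SYT4 had 398, 324 and 181, against 431, 810 and 313 without Dox, which overlap (log2 fold -0.74, SE 0.45, limma adjusted p = 0.266, 95% interval -1.71 to 0.23).

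Of the 3 genes of synaptic vesicle surface proteins, SYN1 and SYP were higher in KO and lower with Dox, and SYN2 was low in every library. SYN1 (ENSG00000008056, chromosome X, 47571901 to 47619857, minus strand), synapsin I, tethers vesicles and had 78.5, 78.4, 56.7, 81.7 and 98.4 normalized counts in KO, against 53, 42 and 36.4 in WT (log2 fold 0.83, SE 0.20, limma adjusted p = 0.00713). It had 44.3, 38.1 and 50.7 with Dox, against 82.3, 68.5 and 76.1 without Dox (log2 fold -0.76, SE 0.22, limma adjusted p = 0.0152). Neither pair overlapped, yet the calls were thin: the KO call was lost without WT 3 (adjusted p 0.0558), and the Dox call without OE without Dox 1 or OE with Dox 2 (adjusted p up to 0.0671). ARAF, on the opposite strand, shares exon sequence with SYN1.

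SYP (ENSG00000102003, chromosome X, 49187815 to 49200218, minus strand), synaptophysin, had 316, 321, 220, 306 and 353 in KO, against 164, 150 and 144 in WT (log2 fold 0.97, SE 0.22, limma adjusted p = 0.00575). It had 250, 115 and 106 in OE with Dox, against 296, 231 and 249 in OE without Dox, where 1 library with Dox reached into the other group (log2 fold -0.82, SE 0.25, limma adjusted p = 0.0207). The Dox call was lost without OE without Dox 1, OE with Dox 2 or OE with Dox 3, and in a fit of these groups alone (adjusted p up to 0.115). SYN2 averaged 12.3 ± 5.01 in KO and 14.1 ± 1.72 in WT, and 16.6 ± 6.0 with Dox and 13.7 ± 1.46 without Dox, with neither fold past the threshold. SCG3 (ENSG00000104112, chromosome 15, 51681492 to 51721026, plus strand), secretogranin III, a protein of dense-core secretory granules, had 445, 486, 662, 543 and 560 in KO, against 200, 278 and 326 in WT (log2 fold 1.02, SE 0.22, limma adjusted p = 0.00325). SCG3 had 155, 77.1 and 77.4 with Dox, against 536, 415 and 396 without Dox (log2 fold -2.18, SE 0.24, limma adjusted p = 2.44e-06), and neither pair overlapped.

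The uninduced line was also set against WT, since both are controls. In OE without Dox, 10 of 35 genes were higher than in WT and 0 lower by limma, against 3.43% and 2.32% of all genes tested, with a median log2 fold of 0.56. EdgeR on the recovered reads called 0 lower and DESeq2 1, and 1 was lower at an unadjusted p under 0.05. With the replicate number as a block, 16 were higher and 1 lower, against 4.19% and 3.07%. The 10 were DCX, MAP2, MAPT, STMN2, STMN4, INA, CRMP1, NCAM1, RTN1 and SYN1. The block added ELAVL3, GAP43, CELF4, SYT1, SNAP25 and SYP as higher, and SYT4 as lower. DCX had 6362, 5027 and 4897 in OE without Dox, against 2511, 2966 and 2063 in WT (log2 fold 1.12, SE 0.15, limma adjusted p = 1.68e-04), and RTN1 had 721, 813 and 858, against 288, 323 and 331 in WT (log2 fold 1.34, SE 0.17, limma adjusted p = 1.29e-04). The libraries of OE without Dox all lay above those of WT for 21 of 35 genes and all below for 0, against 11.6% and 11.4% of all genes tested. Leaving out any 1 of the WT or OE without Dox libraries lost the call of at least 1 of MAP2, MAPT, STMN4 and SYN1, and 6 to 10 genes were then called higher, fewest without OE without Dox 1. It was 6 of 10 that kept the call under every alternative: CRMP1, DCX, STMN2, RTN1, INA and NCAM1.

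With OE without Dox as its control, KO showed almost none of this. In KO against OE without Dox, 0 of 35 genes were higher and 1 was lower by limma, against 0.351% and 1.75% of all genes tested, with a median log2 fold of 0.06. At an unadjusted p under 0.05, 3 were higher and 2 lower, edgeR on the recovered reads called 0 higher, and DESeq2 called 1 higher, ELAVL4 (adjusted p 0.0153). The 1 lower gene was NEFM, with 220, 284, 268, 419 and 369 in KO, against 466, 942 and 607 in OE without Dox (log2 fold -1.08, SE 0.24, limma adjusted p = 0.0234). This call was lost in 6 of 19 alternatives, without KO 1, KO 2, KO 3, OE without Dox 2 or OE without Dox 3 among them (adjusted p up to 0.187). For DCX the KO log2 fold against OE without Dox was 0.19 (95% interval -0.09 to 0.47), against 1.31 when set against WT. For STMN2 it was 0.28 (95% interval 0.03 to 0.54), and for RTN1 0.34 (95% interval 0.01 to 0.67). The higher level of these genes in KO therefore depends on which control is used, and the line, its history and the genotype cannot be told apart. CTNNB1 was lower in KO than in this control too (log2 fold -0.49, SE 0.13, limma adjusted p = 0.0473).

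The line with Dox was also set against WT. In OE with Dox against WT, 3 of 35 genes were higher (GAP43, RBFOX3 and CELF4) and 18 lower, against 10.4% and 10.1% of all genes tested, with a median log2 fold of -0.45. The 3 higher were all structural, and the lower ones were 13 structural and 5 synaptic genes. ELAVL4 had 130, 93.9 and 51.6 with Dox, against 335, 461 and 443 in WT (log2 fold -2.24, SE 0.26, limma adjusted p = 5.17e-06), and SYT4 had 398, 324 and 181, against 784, 2181 and 1523 in WT (log2 fold -2.26, SE 0.45, limma adjusted p = 0.00255). INA, MAPT, RTN1, SYN1 and SYP were lower than in OE without Dox but had log2 folds against WT of -0.13, -0.12, -0.21, 0.03 and -0.07, none past the threshold. Calls of CELF4, DPYSL3, STMN3 and TUBB2A against WT were lost under 3 to 7 of 17 alternatives, and the other 17 of 21 kept theirs.

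Levels were compared between genes per kilobase of exon. The median was 255 normalized counts per kilobase over the 25 structural genes in KO and 191 in WT, and 111 in OE with Dox and 251 in OE without Dox. Over the 10 synaptic genes it was 39.8 in KO and 26.1 in WT, and 20.5 with Dox and 42.5 without Dox. STMN2 was the highest in KO, at 1964 normalized counts per kilobase in KO and 885 in WT, and it was at 381 in OE with Dox and 1621 in OE without Dox. Among synaptic genes, SCG3 was at 170 per kilobase in KO and 84.5 in WT, SYT1 at 127 in KO and 73.5 in WT, and VAMP2 at 135 in KO and 114 in WT. SYT4 was at 84.5 in KO and 347 in WT, the highest of the synaptic genes in WT. SYN1 (21.1 in KO, 11.7 in WT), STX1A (21.0 in KO, 14.1 in WT), SNAP25 (9.79 in KO, 5.41 in WT) and SYN2 (1.94 in KO, 2.23 in WT) were lower, and RBFOX3, at 4.26 in KO and 2.20 in WT, was the lowest of the structural genes. These levels use the union of all annotated exons and understate a gene that uses few of them, such as SNAP25. Genes on the same strand, with means of 0 normalized counts, overlap exons of TUBB3, ELAVL3, SNAP25 and VAMP2. Reads in shared exons could have been dropped, so these levels may be understated.

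Other genes of the same processes moved with the 35. Of 44 further neuronal structure genes that passed the filter, KO had 20 higher and 5 lower (median log2 fold 0.38), and 6 were higher and 30 lower with Dox (median -0.89). Among all genes tested, 6.64% were higher and 7.15% lower in KO, and 12.8% higher and 12.9% lower with Dox. KIF21B, a kinesin motor, averaged 2259 ± 210.2 in KO and 905 ± 84.4 in WT, and 708 ± 118 with Dox and 2049 ± 397 without Dox. KIF5A and PAK3 also rose in KO, with log2 folds of 1.20 and 1.16, and RBFOX1, NRN1, CNTN2 and NEFH fell, with log2 folds of -3.55, -4.24, -1.50 and -1.22. Of 55 further synapse genes, 21 were higher and 1 lower in KO (median 0.26), and 6 were higher and 31 lower with Dox (median -0.63). UNC13A, a vesicle priming protein, had a log2 fold of 1.29 in KO and -1.29 with Dox, the active zone scaffold BSN 0.92 and -1.50, and SHANK2, a postsynaptic scaffold, 0.68 and -2.26. HOMER1 was the 1 lower in KO, at 83.3 ± 21.8 in KO and 152 ± 21.5 in WT.

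The 6 of 44 further structure genes and 6 of 55 further synapse genes higher with Dox lie near the 12.8% of all genes tested. Of these structure genes, the 4 with the lowest adjusted p were CHL1, CNTN2, NCAM2 and NFASC, all cell adhesion molecules. CHL1, a neural adhesion molecule, averaged 5770 ± 578 in OE with Dox and 139 ± 28.8 in OE without Dox (log2 fold 5.38, SE 0.23, limma adjusted p = 2.14e-11). CNTN2, a contactin of early axons, averaged 6316 ± 847 with Dox and 577 ± 117 without Dox (log2 fold 3.46, SE 0.20, limma adjusted p = 7.72e-10). NCAM2 and NFASC had log2 folds of 1.68 and 1.09 with Dox. Other adhesion genes did otherwise: NCAM1 and L1CAM fell, with log2 folds of -1.76 and -1.04, and CNTN1 and NRCAM, at -0.29 and 0.24, did not pass the threshold. In the synapse list STXBP5, SHANK3, GPHN and SV2A rose with Dox, by log2 folds of 1.71, 1.03, 0.85 and 0.61.

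Markers of other cell types differed between groups as well, and their part in the results above was not tested. Among all genes tested, 6.64% were higher and 7.15% lower in KO, and 12.8% higher and 12.9% lower with Dox. The share was 3.43% higher in OE without Dox against WT, and 10.1% lower in OE with Dox against WT. The summed normalized counts of 8 MGE genes were 8436 to 10324 in KO and 1934 to 2193 in WT, and 1613 to 2592 with Dox and 6036 to 9549 without Dox. Of these 8, 4 were higher and 1 lower in KO, 7 were lower with Dox, and 3 were higher in OE without Dox than in WT. The 13 progenitor and radial glia genes summed to 20150 to 24831 in KO and 28409 to 31912 in WT, and 19647 to 26728 with Dox and 25072 to 25855 without Dox, with 2 higher and 5 lower in KO and 3 higher and 7 lower with Dox. Of the 15 cell cycle genes 3 were lower in KO than in WT, 3 lower with Dox than without it, and 7 lower with Dox than in WT, with sums of 12148 to 17348 in KO and 16280 to 23639 in WT, and 10446 to 17060 with Dox and 15496 to 20452 without Dox.

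The sum of 8 mesenchyme genes was 292 to 466 in KO and 697 to 2275 in WT, and 2568 to 7378 with Dox and 406 to 1914 without Dox. Of the 8, 3 were lower in KO and 6 were higher with Dox. COL3A1, a fibrillar collagen, had 2210, 3175 and 481 with Dox, against 35.7, 812 and 69.8 without Dox, with overlap. The 5 epithelium genes summed to 86.9 to 116 in KO and 169 to 265 in WT, and 331 to 770 with Dox and 99.7 to 208 without Dox, with 3 lower in KO and 4 higher with Dox. The 5 choroid plexus genes summed to 1385 to 2062 in KO and 966 to 1871 in WT, and 2594 to 3671 with Dox and 1350 to 1821 without Dox. Of the 4 tested, 1 was lower in KO than in WT (median log2 fold -1.41), and 2 were higher with Dox. The mesenchyme, epithelium and choroid plexus sums were thus higher in every library with Dox than in any without it.

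Summed levels of lists of other neurons and of the neural crest also differed between groups. The 8 midbrain, hindbrain and spinal neuron genes summed to 92.6 to 191 in KO and 400 to 830 in WT, and 157 to 366 with Dox and 248 to 347 without Dox, with 2 of the 7 tested lower in KO and 2 higher and 2 lower with Dox. The 7 sensory and peripheral neuron genes summed to 261 to 423 in KO and 91.8 to 136 in WT, and 115 to 186 with Dox and 298 to 641 without Dox. The 7 neural crest and Schwann cell genes summed to 896 to 1686 in KO and 910 to 1049 in WT, and 159 to 372 with Dox and 807 to 1271 without Dox, with 2 of the 5 tested lower in KO and 1 lower with Dox, while the defining factor SOX10 was at 0 in all 14 libraries. The 4 neuroendocrine genes summed to 1014 to 1248 in KO and 868 to 1117 in WT, and 331 to 480 with Dox and 1091 to 1330 without Dox, with 3 lower with Dox. In both of these last lists every library with Dox was below every library without it, as for the sum of the 35.

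The 5 pluripotent cell genes summed to 384 to 661 in KO and 672 to 888 in WT, and 214 to 315 with Dox and 253 to 450 without Dox, although POU5F1 and NANOG had group means under the floor of 3 reads. The 7 astrocyte and oligodendrocyte genes summed to 35.9 to 47.4 in KO and 52.0 to 123 in WT, and 94.9 to 171 with Dox and 41.7 to 86.1 without Dox, with GFAP and MOG under the floor. The 5 skeletal muscle genes summed to 20.3 to 38.7 in KO and 28.6 to 61.5 in WT, and 27.7 to 174 with Dox and 25.0 to 29.0 without Dox, with MYOD1 and MYOG under the floor.

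**Figure D5:**
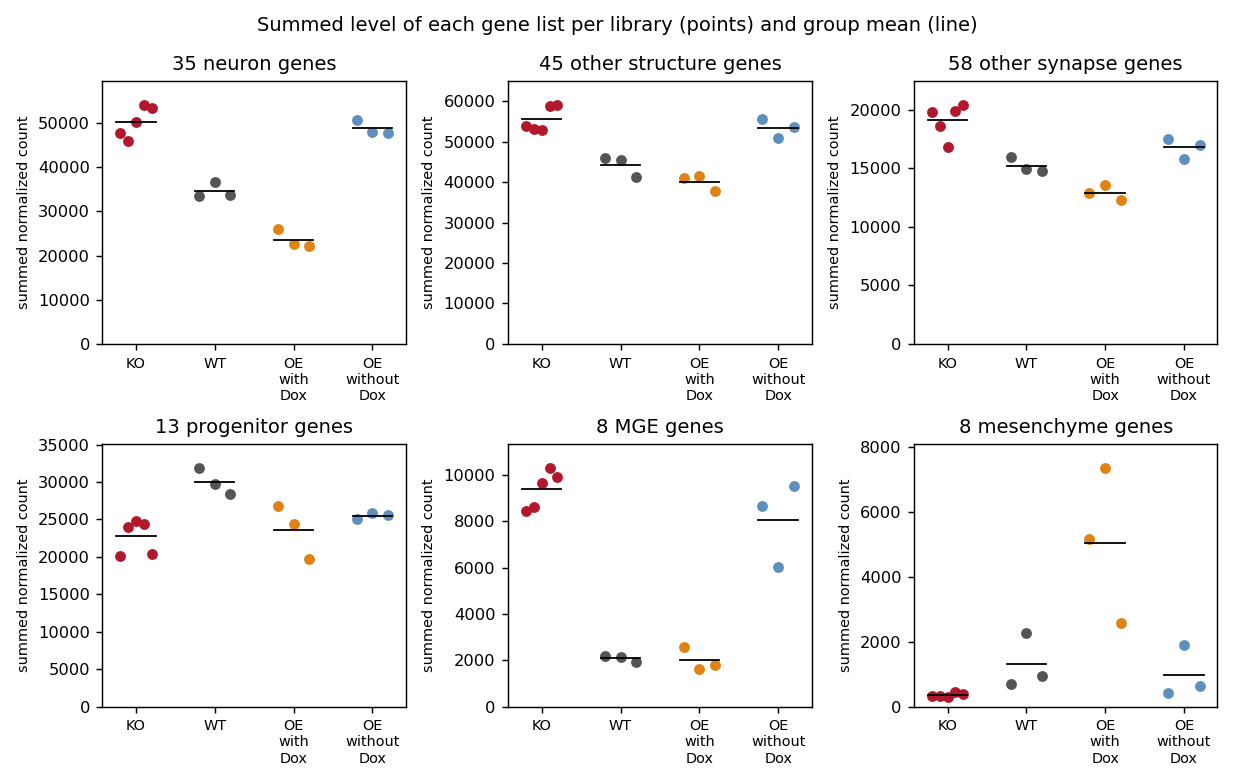
Summed normalized count per library (points) and group mean (lines) for the 35 genes, 45 further structure genes, 58 further synapse genes, 13 progenitor, 8 MGE and 8 mesenchyme genes. The 35 genes and the MGE genes are high in KO and OE without Dox and low in WT and OE with Dox, and mesenchyme genes are highest in OE with Dox (2568 to 7378).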

How the data were processed

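Per the submitters' processing notes, reads were handled with TopHat2 2.1.1, HTSeq 0.9.1, R 3.4.0 and DESeq2 on genome build hg38, and libraries were made from 500 ng of RNA. The annotation release and the strand setting are not given in the sources used here. The deposited unit is a normalized signal: the authors divided gene counts by a library's size factor. Divided by the step of that library, 100.0% of entries are whole reads at a tolerance of 0.01. This gives the recovered reads, 5233270 to 5639725 per library, which sets the precision of low values.

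From these values, genes with at least 10 in at least 3 of 14 libraries (17102) were tested with limma 3.58.1 (trend, robust) on log2(value + 1) in R 4.3.3, so that fold changes of low genes are understated. All 14 libraries entered 1 model of 4 groups with 10 residual degrees of freedom, two-sided, with Benjamini-Hochberg adjustment over all tested genes and a threshold of 0.05. Because whole reads could be recovered, the count tests of edgeR 4.0.16 and DESeq2 1.42.0 were run on them as alternatives. Others were TMM and upper-quartile scaling, a pseudocount of 0.5 or 5, no filter or one of 50, a non-robust fit, a replicate block, a fit to only the groups compared, and the omission of each library in turn. The scripts were checked on simulated data. Identifiers were named with the annotation given for hg38, which names 56948 of 58051. Figures were drawn with matplotlib 3.10.9 and tables made with pandas 2.3.3 in Python 3.11.15.

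Members and lists were chosen with earlier results of these data known. Every library's value is given for DCX and for members called in KO against WT or OE with Dox against OE without Dox, up to 3 per role by adjusted p, and for members called against the common direction. Of the further structure and synapse lists up to 4 called genes per direction are eligible, and some eligible genes and markers are not reported here. Same-numbered libraries of the OE groups deviated together (r of 0.22, 0.25 and 0.40), as did those of OE without Dox and WT (0.22, 0.17 and 0.28), while KO and WT numbers did not (0.24, -0.29 and 0.13). The numbers were therefore taken as pairs in those 2 OE without Dox comparisons, from the data and not from the labels, and blocked values are printed there where a call changed. Between OE with Dox and WT the r was 0.06, 0.04 and 0.25, and that comparison is printed without the block. The block was a term for the replicate number in the fit of all 14 libraries, so KO libraries shared it with the other groups.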

Additional observations from a re-analysis of the deposited data

How the results depend on the processing

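No fold past the threshold, as reported or in the alternative, changed sign under any alternative, while some folds near 0 that were called in neither did, such as that of DPYSL5 in KO against WT under the replicate block (-0.05, against 0.07). The calls that held in every alternative were 15 of 22 in KO against WT, 22 of 24 in OE with Dox against OE without Dox, 24 of 25 for the difference between these effects, 17 of 21 in OE with Dox against WT, 6 of 10 in OE without Dox against WT and 0 of 1 in KO against OE without Dox. Leaving out 1 library at a time gave 16 to 20 higher and 2 to 3 lower in KO against WT. It gave 1 to 2 higher and 21 to 24 lower with Dox. There were 6 to 10 higher and 0 to 1 lower in OE without Dox against WT, and 0 to 2 lower in KO against OE without Dox. For the difference between the effects, 1 to 3 genes were called positive.

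With the replicate number as a block, 16 genes were higher and 1 lower in OE without Dox against WT, and 2 were higher with Dox. Where the numbers pair no libraries, in KO against WT, the block gave 17 higher and 3 lower.

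Other alternatives moved the smallest counts. The number higher with Dox was 2 in the fit of these groups alone and by DESeq2. The number lower in OE without Dox against WT was 1 without the robust option and by DESeq2. In KO against OE without Dox, 0 were lower without a filter, and 1 was higher in the fit of these groups alone and by DESeq2. The number of differences called positive was 1 without a filter and by edgeR. The cause of these changes was not tested. Among all genes tested, KO against OE without Dox had 38 to 92 higher calls under the alternatives that keep every library and 22 to 65 when 1 is left out, against 60. Its lower calls ran from 157 to 288 when 1 is left out, against 300. OE without Dox against WT had 269 to 500 higher and 152 to 369 lower calls when 1 library is left out, against 586 and 396, and up to 595 lower calls by DESeq2. Depth limits SYN2 and RBFOX3 most, the genes with the lowest counts of the 35.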
